A study of Mus musculus with 4 samples.

Results

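The 216 genes described here, of 17655 in the deposited table, are small nucleolar RNA (snoRNA) genes, microRNA genes and the genes that carry snoRNAs in their introns. They were chosen by symbol: 58 box C/D snoRNAs (Snord), 34 box H/ACA snoRNAs (Snora), 4 small Cajal body RNAs (Scarna), 108 microRNA genes (Mir) and 12 snoRNA host genes (Snhg genes and Gas5). The rule itself uses symbols alone, but the set was proposed with results of these libraries already known, so the counts below describe it and test nothing. The RNA came from the mouse macrophage line RAW264.7, which was derived from a tumor induced by Abelson leukemia virus. All cells, controls included, were permeabilized with digitonin and then incubated for 24 h. The conditions were 10 µM ManGn, a synthetic mannose and N-acetylglucosamine disaccharide, 10 µM of the free oligosaccharide (fOS) pool from Trex1-/- mouse fibroblasts, the water from a mock fOS extraction, and ultrapure water. Letters in the sample titles tie ManGn to ultrapure water and fOS to the mock extraction. Each condition is 1 library of a cell line, so there was no replicate and no test, and a difference between libraries includes the difference between cultures.

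Most snoRNAs are cut out of the introns of other genes and bind a fixed set of proteins. Box C/D snoRNAs pair with ribosomal RNA to guide methylation of the ribose, box H/ACA snoRNAs guide conversion of uridine to pseudouridine, and small Cajal body RNAs (scaRNAs) do the same for spliceosomal RNAs. The Snhg genes and Gas5 are spliced into RNAs that mostly encode no known functional protein, and several of them start with the same pyrimidine-rich motif as ribosomal protein mRNAs and are broken down when they are translated. MicroRNAs begin as a hairpin in a longer transcript. The hairpin is cut out by Drosha with Dgcr8, exported by Xpo5 and cut again by Dicer1, and a short mature strand is loaded on an Argonaute protein. The microRNA rows of this table are hairpin genes, so their values are not levels of mature microRNAs.

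The sequences below are Snord22, Snord16a and Snora65, which the read counts turn on, and Snord47 and Snora73b, which lie in host genes, from GENCODE M21 transcripts (GRCm38). In the C/D snoRNAs the capitals mark an exact TGATGA (box C) in the first 25 bases, where there is one, and the last CTGA (box D) in the last 20 bases. In the H/ACA snoRNAs they mark an ACA in the last 6 bases.
Snord22: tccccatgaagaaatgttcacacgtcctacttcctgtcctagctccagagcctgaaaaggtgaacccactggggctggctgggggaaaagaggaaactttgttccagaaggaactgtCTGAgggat
Snord16a: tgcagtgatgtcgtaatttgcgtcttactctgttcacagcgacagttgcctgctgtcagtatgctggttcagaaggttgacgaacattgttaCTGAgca
Snord47: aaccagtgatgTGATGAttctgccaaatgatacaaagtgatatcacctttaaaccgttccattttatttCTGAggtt
Snora65: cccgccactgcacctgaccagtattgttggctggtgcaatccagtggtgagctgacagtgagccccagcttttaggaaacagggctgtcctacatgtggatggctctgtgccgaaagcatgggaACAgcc
Snora73b: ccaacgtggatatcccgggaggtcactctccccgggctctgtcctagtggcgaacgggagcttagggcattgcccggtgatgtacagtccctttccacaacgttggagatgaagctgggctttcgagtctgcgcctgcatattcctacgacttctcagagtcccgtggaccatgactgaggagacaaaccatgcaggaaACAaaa

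Snord22 lies on chromosome 19 in Snhg1, Snord16a on chromosome 9 in Rpl4, Snord47 on chromosome 1 in Gas5, Snora65 on chromosome 2 in Rpl12 and Snora73b on chromosome 4 in Snhg3. All 96 snoRNA and scaRNA rows matched a GENCODE transcript. CTGA was found in the last 20 bases of 57 of 58 box C/D sequences (98.3%), against 4 of 34 box H/ACA sequences (11.8%), and TGATGA in the first 25 bases of 38 box C/D sequences (65.5%) and of 0 box H/ACA sequences. ACA was found in the last 6 bases of 31 box H/ACA sequences (91.2%), against 5 box C/D sequences (8.62%). Only the RNA strand was searched, and CTGA can share its TGA with TGATGA. The rows named as C/D and as H/ACA thus carried the boxes of their class in most cases.

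For the microRNA genes with the most reads, and for Mir142, a gene known for its expression in blood cells, the mature sequences from RefSeq (GRCm38.p6) are shown with the seed, bases 2 to 8, in capitals.
mmu-miR-3064-5p: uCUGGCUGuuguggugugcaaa
mmu-miR-3064-3p: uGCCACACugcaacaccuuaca
mmu-miR-703: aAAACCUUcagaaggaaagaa
mmu-miR-686: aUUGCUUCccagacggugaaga
mmu-miR-142a-5p: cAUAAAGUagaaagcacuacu
mmu-miR-142a-3p: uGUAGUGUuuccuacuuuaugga
No seed was shared among these 6. The whole hairpin of Mir686, on chromosome 14, is also shown because its sequence lies without a gap in the spliced messenger RNA of Psmb5, a catalytic subunit of the proteasome. The capitals mark the mature strand.
Mir686 hairpin: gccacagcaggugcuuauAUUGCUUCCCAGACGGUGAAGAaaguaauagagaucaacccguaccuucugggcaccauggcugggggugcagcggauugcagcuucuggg

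On a short RNA few reads give a high FPKM. FPKM is the number of fragments scaled to transcript length and to library depth, and the values were made with RSEM, which divides by an effective length that is shorter than the transcript. Over the 199 of 204 small RNA rows with a RefSeq length, the values of each library fell on steps: with 36.4 to 36.65 bases taken off the length and a depth of 10212900 to 10914400 reads, FPKM × length × depth gave whole numbers. Within 0.1 of a whole number were 92.5% of the values worth fewer than 8 reads in the ManGn library, 92% in fOS, 87.8% in mock extraction and 93.1% in water. Values spread evenly would give 20% without a fit, but the steps were fitted on these same values, which raises the shares. Steps fitted on snoRNAs and scaRNAs and scored on microRNAs gave 78.1 to 89.7%. The reverse gave 40% in mock extraction, where the fitted depth was 8864700 reads, and 74.1 to 100% in the other libraries. The reads given below are these steps, and they are estimates, since the deposited table holds no counts.

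A single read was worth 5.21 FPKM in the ManGn library on an RNA of 55 nt, 2.22 FPKM at 80 nt, 1.16 FPKM at 120 nt and 0.1 FPKM at 1000 nt. It reached an FPKM of 1 on every RNA shorter than 128.2 nt in the fOS library and 134.3 nt in the mock extraction library. Of the members with a length, 55 of 58 box C/D snoRNAs (median 72.5 nt), 21 of 34 box H/ACA snoRNAs (median 122 nt) and 101 of 103 microRNA hairpins (median 85 nt) were short enough for this in all 4 libraries. Snord58b, 55 nt long and held by the ribosomal protein gene Rpl17, had 41.7 FPKM with ManGn from 8 reads, whereas Snord17, 221 nt long, had 4.71 FPKM in the same library from 9 reads.

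**Figure D1:**
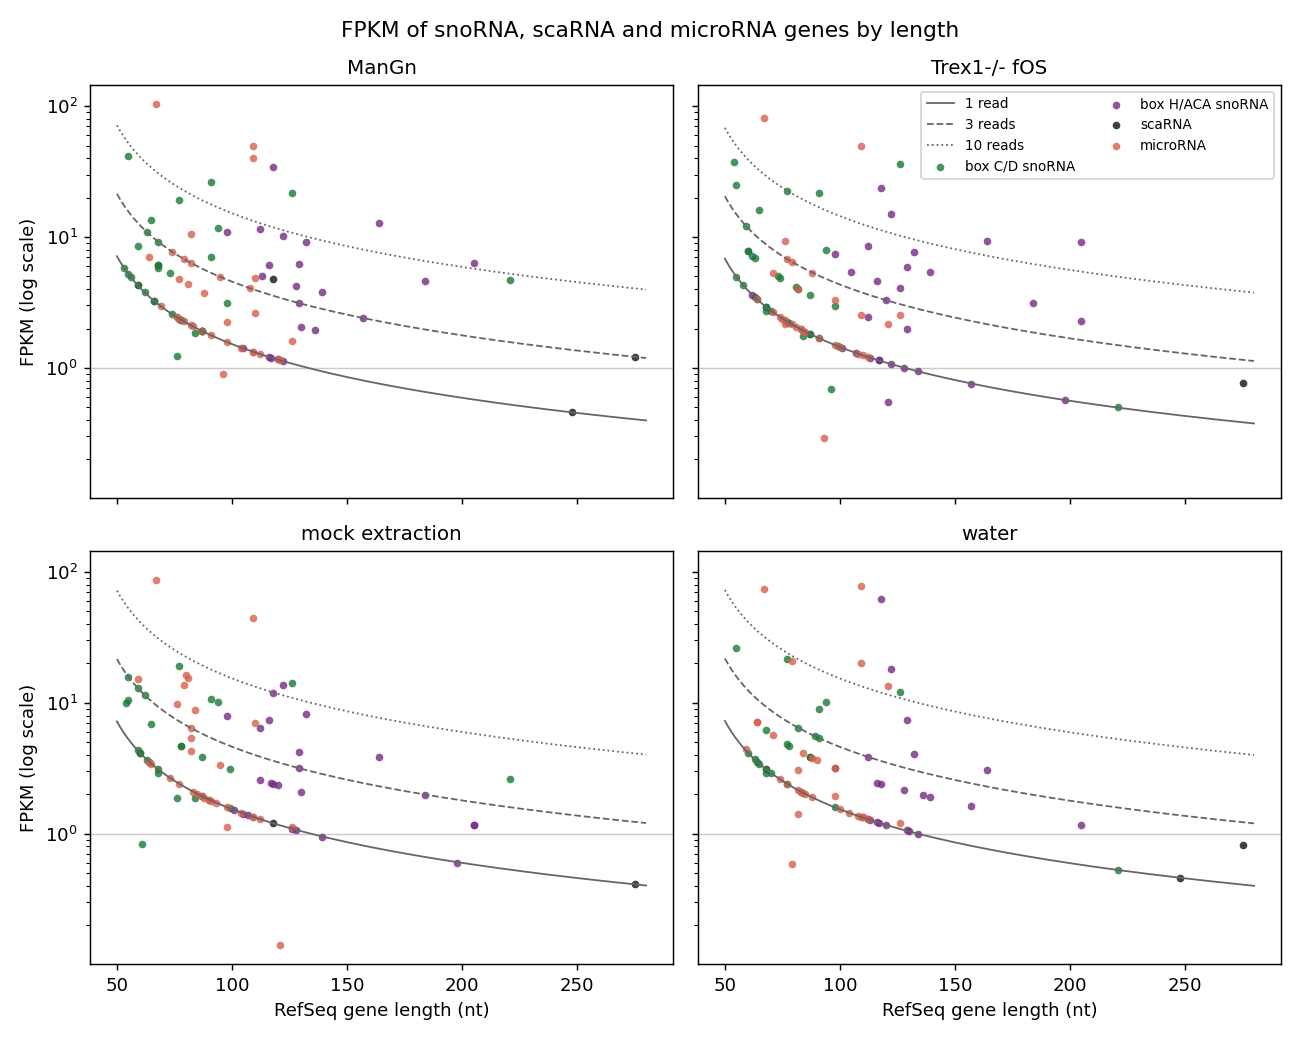
FPKM (log scale) against RefSeq gene length in nt for each snoRNA, scaRNA and microRNA gene above 0, with a panel for each library and curves for the FPKM that 1, 3 and 10 reads give. Many points lie on the curve of 1 read, which crosses an FPKM of 1 between 128.2 and 134.3 nt.

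Few reads fell on the small RNAs in any library. FPKM was above 0 for 59 of the 96 snoRNAs and scaRNAs with ManGn, 65 with fOS, 53 with mock extraction and 48 with water, but at least 3 reads and an FPKM of at least 1 were reached by 27, 23, 18 and 14 of them in that order of libraries. The number resting on 1 read was 24 with ManGn, 28 with fOS, 20 with mock extraction and 20 with water. Of the 108 microRNA genes, 37, 35, 35 and 37 were above 0 and 10, 6, 11 and 5 had at least 3 reads. For 60 snoRNAs and scaRNAs and 55 microRNAs the highest library held 1 to 3 reads, and 7 box C/D snoRNAs and 35 microRNAs were listed at 0 in all 4 libraries. In contrast, 11 of the 12 host genes were above 0 in every library, and of the 11 with a known length 9 or 10 had at least 10 reads in each library. Snhg11 stayed below an FPKM of 1, at 0.23 to 0.39 FPKM.

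Facts of the whole series bear on these values. The 4 libraries were of like depth, and 10405 to 10663 genes had an FPKM of at least 1. Of 8 macrophage markers, 7 were above 1 FPKM (Mertk was at most 0.83), and their summed level was 8174, 8421, 9063 and 8780 FPKM with ManGn, fOS, mock extraction and water. Lyz2 gave most of this sum (6202 to 7250 FPKM), and single markers differed more: Cd14 had 367, 385, 254 and 64.9 FPKM and Itgam 49.8, 44.4, 136 and 103 FPKM in the same order. Markers of B cells, fibroblasts, epithelium, endothelium and erythroid cells summed, within each cell type, to at most 0.27 FPKM in any library. Ms4a1, Pdgfra, Epcam, Cdh1, Krt18, Cdh5 and Hba-a1 were at 0, and Cd3d, a T cell marker, had 0.33 to 1.08 FPKM. These are bulk RNA levels, in which fewer cells that use a gene and less of its RNA per cell cannot be told apart.

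Host genes included the members with the most reads, and most of them were lower with ManGn than with water. A log2 ratio here is that of FPKM + 0.1, and a gene is counted where the ratio was at least 2-fold and 1 of the pair reached an FPKM of 1, among 11183 genes that reached an FPKM of 1 in some library (165 members). With ManGn over water 0 of 11 host genes were counted higher and 6 lower, where 9.44% of all genes were higher and 7.37% were lower. Their median log2 ratio was -1.56, against 0.05 for all genes, but with ManGn over mock extraction it was -0.25. With fOS over mock extraction 1 was counted higher and 1 lower, where 2.67% of all genes were higher and 6.41% were lower, and the median was -0.38, against -0.02 for all genes. Between the controls, mock extraction over water, 0 were higher and 1 lower, where 9.24% of all genes were higher and 6.69% were lower, and the median was -0.28, against 0.07 for all genes.

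Snhg1, whose span holds Snord22, had 29.2 FPKM with ManGn, 68.9 with fOS, 88.8 with mock extraction and 115 with water. Its log2 ratio was -1.97 with ManGn relative to water, and -0.37 both with fOS relative to mock extraction and between the controls. Snhg5 had 11.6 FPKM with ManGn, 22.9 with fOS, 32.2 with mock extraction and 36.6 with water. Snhg12, whose span holds Snord99, Snora16a, Snora44 and Snora61, had 7.79, 14.7, 20.4 and 23.2 FPKM in the same order of libraries. These 3 genes and Snhg7 (4.32, 6.44, 8.86 and 13.3 FPKM) had the same order of libraries, lowest with ManGn and highest with water, and relative to the mock extraction they were again the host genes counted lower with ManGn, with log2 ratios of -1.02 to -1.60. In that comparison 0 host genes were counted higher and 4 lower, where 3.51% of all genes were higher and 3.47% were lower. With fOS over water 0 were higher and 4 lower, where 14.1% and 14.3% of all genes were.

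For Snhg6 and Snhg8 the water library stood apart. Snhg6, which holds Snord87, had 28.4 FPKM with ManGn, 29.95 with fOS, 39.0 with mock extraction and 92.3 with water. With ManGn its log2 ratio was -1.70 relative to water but -0.46 relative to mock extraction, and between the controls it was -1.24. Snhg8 had 7.35 FPKM with ManGn, 6.49 with fOS, 8.73 with mock extraction and 15.9 with water. Against the mock extraction its log2 ratio with ManGn was -0.25, so neither gene was counted there.

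Gas5, Snhg3 and Snhg4 did not follow the others. Gas5, named for its accumulation in growth-arrested cells, had 29.3 FPKM with ManGn, 41.97 with fOS, 23.3 with mock extraction and 23.8 with water. Relative to its control Gas5 had a log2 ratio of 0.30 with ManGn and 0.85 with fOS. Snhg3, which holds Snora73a and Snora73b, had 25.5 FPKM with ManGn, 44.0 with fOS, 28.3 with mock extraction and 27.8 with water. Snhg4 had 4.85, 7.41, 4.55 and 4.03 FPKM in that order. In all 3 genes the fOS library was the highest, the log2 ratios for fOS over mock extraction were 0.64 to 0.85, and the controls differed by at most 0.17, but no ratio reached 2-fold. The calls with fOS came from low genes. Snhg10 had 0.36 FPKM with fOS against 1.74 FPKM with mock extraction (1.72 with ManGn, 2.13 with water). Snhg9 had 1.25 FPKM with fOS and was listed at 0 with mock extraction, and its value with fOS was worth about 2 reads.

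**Figure D2:**
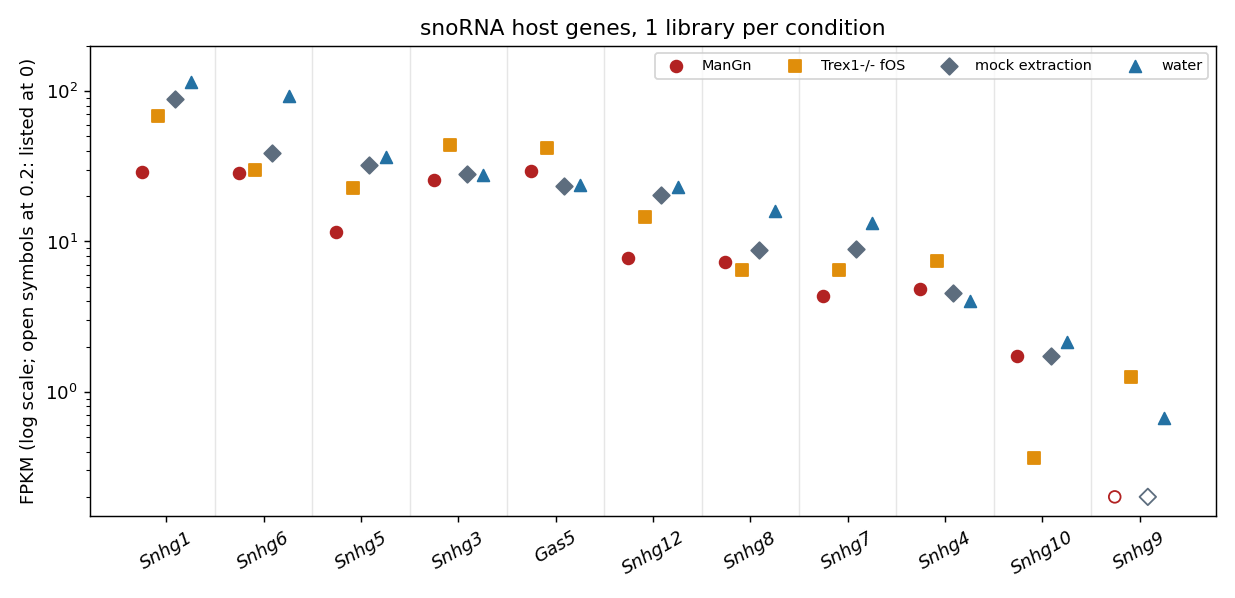
FPKM (log scale) of the 11 host genes with an FPKM of at least 1 in a library, 1 symbol for each library, with open symbols at 0.2 for genes listed at 0. Snhg1, Snhg5, Snhg7 and Snhg12 are lowest with ManGn and highest with water, and Gas5, Snhg3 and Snhg4 are highest with fOS.

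Among box C/D snoRNAs with ManGn over water, 21 of 49 were counted higher and 7 lower. Of the 21, 17 were listed at 0 with water and 18 had at most 3 reads in either library, and all 7 lower ones had at most 3 reads. With fOS over mock extraction, 17 were higher and 9 lower, and 13 and 8 of these had at most 3 reads. The controls, neither of which got a ligand, also differed: 14 were higher and 11 lower with mock extraction over water, 13 and 11 of them from at most 3 reads. The share of box C/D snoRNAs counted was 57.1%, 53.1% and 51.0% in these comparisons, against 16.8%, 9.09% and 15.9% of all genes.

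Only 3 box C/D snoRNAs had at least 10 reads in a library. Snord22, required in Xenopus oocytes for processing of the small-subunit ribosomal RNA, had 21.6 FPKM with ManGn, 35.9 with fOS, 14.2 with mock extraction and 12.0 with water. This was 20, 35, 13 and 11 reads, so both ligand libraries were above both controls. Corrected for depth the ratio was 2.52 for fOS over mock extraction (95% interval 1.3 to 5.19, counting error only) and 1.81 for ManGn over water (0.825 to 4.18). Snord22 overlaps an exon of Snhg1 in the annotation, and Snhg1 itself was lower in both ligand libraries than in their controls.

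Snord16a, in an intron of the ribosomal protein gene Rpl4, had 26.6 FPKM with ManGn, 21.9 with fOS, 10.7 with mock extraction and 8.97 with water. The reads were 15, 13, 6 and 5, again with both ligand libraries above both controls. The ratio of Snord16a was 2.98 for ManGn over water (1.03 to 10.5) and 2.03 for fOS over mock extraction (0.719 to 6.5). Snord16a reached 10 reads only in the ligand libraries, so its high values there helped to choose it and its intervals test nothing. Rpl4 had 1551 FPKM with ManGn, 1451 with fOS, 1787 with mock extraction and 2666 with water. Snord96a did not share the pattern of Snord22 and Snord16a, with 19.1, 22.7, 19.3 and 21.7 FPKM, or 8, 10, 8 and 9 reads. Snord89 was as level, with 11.8, 7.98, 10.2 and 10.2 FPKM from 7, 5, 6 and 6 reads.

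Snord47, in an intron of Gas5, had 13.5 FPKM with ManGn, 16.1 with fOS, 6.85 with mock extraction and 3.43 with water, which was 4, 5, 2 and 1 reads. Snord17, held by Snx5, had 9 reads with ManGn, 1 with fOS, 5 with mock extraction and 1 with water, a ratio of 8.94 for ManGn over water (1.24 to 392). The largest log2 ratios of the class came from rows at 0 in a control. Snord2, in an intron of the translation factor gene Eif4a2, had 9.19 FPKM with ManGn and 2.91 FPKM with fOS, worth 3 and 1 reads, and was listed at 0 in both controls. Snord52 and Snord37 had 8.58 and 5.85 FPKM with ManGn from 2 reads and 1 read and were listed at 0 in the other 3 libraries. Snord104 and Snord87 had 1 or 2 reads in each ligand library and were listed at 0 in both controls. Snord66 had 4.27 FPKM with fOS from 1 read. For these 6 rows, with at most 3 reads in a library, a difference was not detectable at this depth.

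Among box H/ACA snoRNAs, 12 of 32 were counted higher and 5 lower with ManGn over water, 10 higher and 4 lower with fOS over mock extraction, and 11 higher and 7 lower with mock extraction over water. These were 53.1%, 43.8% and 56.2% of the class, against 16.8%, 9.09% and 15.9% of all genes. At most 3 reads lay behind 4 and 5 of these calls with ManGn, 4 and 3 with fOS, and 8 and 6 between the controls. The class is longer and had more reads per member than the box C/D class, and 4 members reached 10 reads.

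Snora73b, of the U17 family that acts in cleavage of the ribosomal RNA precursor, had 6.30 FPKM with ManGn, 9.15 with fOS, 1.16 with mock extraction and 1.16 with water. The reads were 11, 17, 2 and 2. The ratio of Snora73b was 5.47 for ManGn over water (95% interval 1.19 to 50.8) and 7.95 for fOS over mock extraction (1.89 to 71). The gene that holds it, Snhg3, had a log2 ratio of -0.12 and 0.64 in these comparisons. Snora73a, a near copy in the same gene that can share reads with it, was listed at 0 with ManGn and water and had 2.28 FPKM with fOS and 1.16 FPKM with mock extraction, worth 4 and 2 reads.

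Snora81, in an intron of Eif4a2, had 12.9 FPKM with ManGn, 9.35 with fOS, 3.83 with mock extraction and 3.07 with water, or 17, 13, 5 and 4 reads. The ratio of Snora81 was 4.22 for ManGn over water (1.38 to 17.3) and 2.43 for fOS over mock extraction (0.814 to 8.72). Eif4a2 had 52.0 FPKM with ManGn, 49.6 with fOS, 55.9 with mock extraction and 121 with water, so the snoRNA and the gene that holds it were highest in different libraries. Snora31, held by Tpt1, had 9, 7, 2 and 3 reads in the same order of libraries.

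Snora65, in an intron of Rpl12, had the most reads of any snoRNA and, by number of reads, differed most between the controls. It had 34.3 FPKM with ManGn, 23.6 with fOS, 12.0 with mock extraction and 62.4 with water, or 29, 21, 10 and 52 reads. The ratio of Snora65 was 0.194 for mock extraction over water (0.0877 to 0.385), 0.554 for ManGn over water (0.339 to 0.889) and 1.97 for fOS over mock extraction (0.886 to 4.67). Rpl12 had 1296, 1301, 1676 and 2235 FPKM in the 4 libraries, so the controls of Rpl12 lay closer together than those of the snoRNA. Snora28, in an intron of Eif5, had 9, 14, 12 and 16 reads, and Snora17 had 9, 8, 8 and 4. Snora7a, which overlaps an exon of Rpl32, had 6, 6, 4 and 7 reads.

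Rows at 0 in a control again led by log2 ratio. Snora23, held by Ipo7, had 4.58 FPKM with ManGn (7 reads), 3.11 with fOS (5 reads) and 1.98 with mock extraction (3 reads) and was listed at 0 with water. Snora41, held by Eef1b2, had 4 reads with ManGn and 1 with fOS and was listed at 0 in both controls. Snora33, held by Rps12, had 1, 4 and 1 reads with ManGn, fOS and mock extraction and was listed at 0 with water. Snora61 and Snora44, both in the span of Snhg12, had 1 read each with fOS and were listed at 0 with mock extraction. Of the 96 snoRNAs and scaRNAs, 5 were above 0 in both ligand libraries and in neither control (Snora41, Snora69, Snord104, Snord2 and Snord87, with at most 4 reads), and 1 was above 0 in both controls and in neither ligand library (Snora34, 2 reads). The share of all genes with these patterns was not taken. With so few reads the 2 counts are not read as a difference between ligands and controls.

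The scaRNAs were at the limit of detection. Scarna13, which lies in an intron of Snhg10, had 1.21 FPKM with ManGn, 0.77 with fOS, 0.41 with mock extraction and 0.82 with water, which was 3, 2, 1 and 2 reads. Scarna3a had 4.74 FPKM with ManGn from 4 reads and was listed at 0 in the other libraries. Scarna8, held by Haus6, had 1.20 FPKM with mock extraction from 1 read and was listed at 0 elsewhere. Scarna6 had at most 0.46 FPKM.

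**Figure D3:**
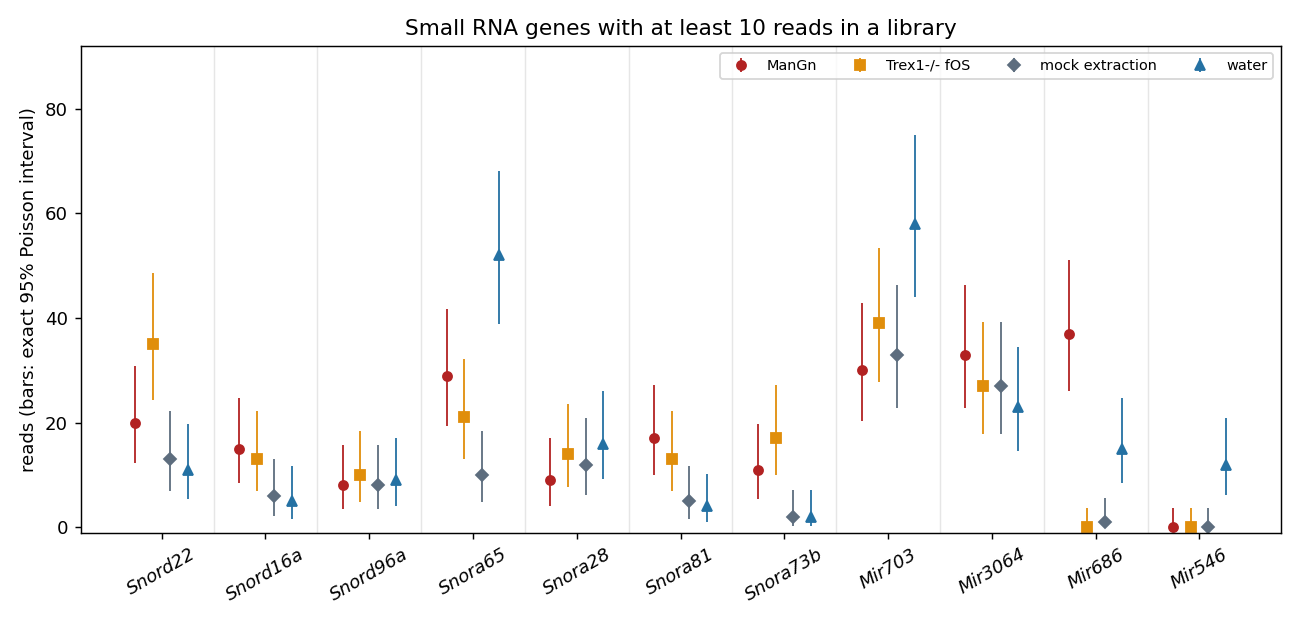
Estimated reads of the 11 small RNA genes with at least 10 reads in a library, 1 symbol for each library, with exact 95% Poisson intervals. Snord22, Snord16a, Snora81 and Snora73b have more reads with ManGn and fOS than with mock extraction and water. Of these, Snord16a, Snora81 and Snora73b reach 10 reads only in the ligand libraries, so the choice of rows favors this pattern. Snora65 has 52 reads with water and 10 with mock extraction, and Mir686 has 37 reads with ManGn and 0 with fOS.

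Summed over members, more reads fell on snoRNAs and scaRNAs with each ligand than with its control. The sums were 254 reads with ManGn (95% interval 224 to 287), 258 with fOS (227 to 291), 155 with mock extraction (132 to 181) and 179 with water (154 to 207), again with intervals for counting error only. Corrected for depth, the ratio was 1.41 for ManGn over water (1.16 to 1.72), 1.56 for fOS over mock extraction (1.27 to 1.91) and 0.872 for mock extraction over water (0.698 to 1.09). Snora65 alone gave 52 of the 179 reads with water. Without it, an alternative chosen after seeing the data, these ratios were 1.76 (1.41 to 2.21), 1.53 (1.24 to 1.89) and 1.15 (0.899 to 1.47). Rows with more reads in both ligand libraries, such as Snord22, Snord16a, Snora81 and Snora73b, stayed in these sums. Snord22 alone gave 35 of the 258 reads with fOS and 13 of the 155 with mock extraction, and Snora73b gave 17 and 2. Ratios without these rows were not taken, so the sums do not show a difference spread over the class. Box C/D snoRNAs had 110, 119, 72 and 66 reads with ManGn, fOS, mock extraction and water, and box H/ACA snoRNAs 136, 136, 82 and 110. For ManGn over water the ratio was 1.66 (1.21 to 2.28) for box C/D and 1.23 (0.949 to 1.59) for box H/ACA snoRNAs. For fOS over mock extraction it was 1.55 (1.14 to 2.1) and 1.55 (1.17 to 2.07). All of these RNAs together held 0.0827%, 0.0845%, 0.0539% and 0.0515% of the summed FPKM of the 4 libraries. The share of short or unprocessed RNA kept in each library was not measured, and its part in the sums was not tested.

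**Figure D4:**
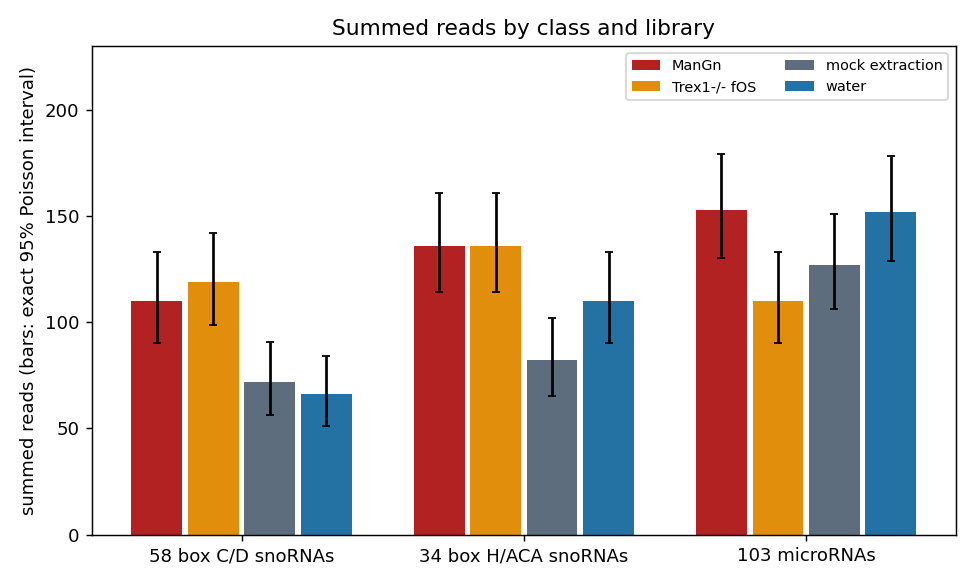
Summed estimated reads of box C/D snoRNAs, box H/ACA snoRNAs and microRNA hairpins with a known length in each library, with bars from 0 and exact 95% Poisson intervals. Box C/D snoRNAs have 110 and 119 reads with ManGn and fOS, against 72 and 66 with mock extraction and water, and microRNAs have 110 to 153 with no such split.

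More snoRNAs were counted higher than lower with ManGn, while more of the genes that hold them were counted lower. In GENCODE M21, 51 of the 58 box C/D snoRNAs lay in an intron of a gene on the same strand, 5 overlapped an exon and 2 had no gene there, and of the 34 box H/ACA snoRNAs 28, 4 and 2 did. Ribosomal protein genes held 18 box C/D and 11 box H/ACA snoRNAs. For 74 tested snoRNAs and scaRNAs the holding gene, 1 of 56, was also in the table. With ManGn over water 4 of these 56 genes were counted higher and 12 lower, with a median log2 ratio of -0.72, where 9.44% of all genes were higher and 7.37% were lower. Of the 30 snoRNAs and scaRNAs counted higher in this group, 1 lay in a gene counted higher and 11 in genes counted lower, and of the 12 counted lower 5 lay in genes counted lower. Some of the lower genes, such as Rpl13a and Snhg12, hold several of the 74, so these counts do not show that the directions were linked. Most calls also rested on few reads. Of all 84 tested snoRNAs and scaRNAs, 34 were counted higher and 12 lower here, and 22 and 12 of these had at most 3 reads. With fOS over mock extraction 1 holding gene was higher and 2 lower, with a median of -0.18, where 2.67% of all genes were higher and 6.41% were lower. In that comparison 25 of the snoRNAs and scaRNAs were higher and 13 lower. Between the controls the median of the holding genes was already -0.37, with 4 higher and 3 lower, where 9.24% of all genes were higher and 6.69% were lower. Of the snoRNAs and scaRNAs 24 were higher and 18 lower between the controls. The 12 in host genes of the rule had 45 reads with ManGn, 68 with fOS, 20 with mock extraction and 21 with water. The 29 in ribosomal protein genes had 86, 76, 49 and 92 reads, which depended on Snora65: without it the other 28 had 57, 55, 39 and 40, so that the ManGn library was no longer below water. The 51 in other genes had 108, 98, 77 and 60.

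Some rows share their sequence with a spliced transcript, coding or non-coding, of another gene. The whole sequence of 4 of 58 box C/D snoRNAs, 4 of 34 box H/ACA snoRNAs and 26 of 105 microRNA hairpins lay in a spliced transcript of another gene, where a read of the hairpin and a read of that transcript cannot be told apart. The box H/ACA rows among these held 8, 8, 4 and 10 reads and the box C/D rows 3, 1, 1 and 2. For the microRNAs they held 46 reads with ManGn, 5 with fOS, 31 with mock extraction and 35 with water, and the other hairpins held 107, 104, 96 and 117. Some of these other hairpins still overlap an exon, as Mir3064 does in Ddx5, and 39 of the 108 microRNA genes overlapped an exon.

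Among microRNA genes 25 of 70 were counted higher and 20 lower with ManGn over water, 25 higher and 27 lower with fOS over mock extraction, and 23 higher and 21 lower with mock extraction over water. At most 3 reads lay behind 21 and 17, 21 and 21, and 18 and 17 of these calls. The share counted was 64.3%, 74.3% and 62.9%, against 16.8%, 9.09% and 15.9% of all genes. Their summed reads were 153 with ManGn (130 to 179), 110 with fOS (90.4 to 133), 127 with mock extraction (106 to 151) and 152 with water (129 to 178), and the depth-corrected ratio was 1 for ManGn over water (0.794 to 1.26) and 0.81 for fOS over mock extraction (0.622 to 1.05).

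By mean reads over the 4 libraries Mir703, Mir3064 and Mir686 led the microRNA genes. Mir3064 overlaps an exon of Ddx5, which encodes an RNA helicase that assists Drosha. It had 104 FPKM with ManGn, 81.2 with fOS, 86.4 with mock extraction and 73.7 with water, the highest FPKM of any member with ManGn, from 33, 27, 27 and 23 reads on 67 nt. The ratio of Mir3064 was 1.43 for ManGn over water (0.812 to 2.54) and 0.936 for fOS over mock extraction (0.528 to 1.66). Ddx5 had 227, 306, 234 and 106 FPKM in the same order. Mir703, with no gene around it on its strand, had 39.9 FPKM with ManGn, 49.5 with fOS, 44.5 with mock extraction and 78.6 with water. These were 30, 39, 33 and 58 reads, with water above the other 3 libraries, and the ratio was 0.514 for ManGn over water (0.319 to 0.812) and 1.11 for fOS over mock extraction (0.678 to 1.81).

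Mir686 had 49.6 FPKM with ManGn (37 reads), was listed at 0 with fOS, and had 1.35 FPKM with mock extraction (1 read) and 20.1 FPKM with water (15 reads). The ratio was 2.45 for ManGn over water (1.31 to 4.81) and 0.0671 for mock extraction over water (0.00159 to 0.436). Psmb5, whose mRNA contains the hairpin printed above, had 79.5, 110, 71.3 and 44.6 FPKM and so was highest where Mir686 was listed at 0. Mir546, whose hairpin lies in a spliced transcript of Ctdsp2, was listed at 0 with both ligands and had 0.14 FPKM with mock extraction and 13.4 FPKM with water. The value with mock extraction was worth 0.121 reads, which is not a whole read. Ctdsp2 had 9.10, 8.22, 20.7 and 24.7 FPKM.

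The remaining microRNA rows named by size held few reads. Mir5125, in an intron of Srrm2, had 3, 3, 6 and 9 reads with ManGn, fOS, mock extraction and water. Mir1896 had 2, 1 and 7 reads with ManGn, fOS and mock extraction and was listed at 0 with water. Mir719 (4.86 FPKM with ManGn and 6.98 with mock extraction), Mir221 (4.95 and 3.34) and Mir5133 (4.77 and 2.41) were listed at 0 with fOS and with water. Mir762 had 9.29 FPKM with fOS (4 reads) and 2.44 FPKM with ManGn (1 read) and was listed at 0 in both controls. Mir3470a had 6.83 FPKM with fOS (3 reads) and was listed at 0 with mock extraction, and Mir3096b, whose length was not known, had 10.1 FPKM with fOS and 3.59 FPKM with water. Mir142 was listed at 0 with ManGn and had 1 read with fOS, 1 with mock extraction and 2 with water. Of the 108 genes, 4 were above 0 in both ligand libraries only and 6 in both controls only, and the share of all genes was not taken here either.

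The genes for snoRNA proteins differed from the snoRNAs in being well covered. Of 19 genes fixed as snoRNP core and assembly factors, 5 were counted higher and 0 lower with ManGn over water (median log2 ratio 0.65), 1 higher and 0 lower with fOS over mock extraction (0.46), and 3 higher and 0 lower with mock extraction over water (0.46). Of all genes 9.44% were higher and 7.37% lower in the first comparison, 2.67% and 6.41% in the second, and 9.24% and 6.69% between the controls. Nop58, a core protein of box C/D particles, had 81.7 FPKM with ManGn, 143 with fOS, 85.8 with mock extraction and 34.3 with water. Dkc1, the pseudouridine synthase of box H/ACA particles, had 38.1, 74.1, 34.6 and 17.3 FPKM, which put it 2-fold or more above the matched control with either ligand (log2 1.13 and 1.10). Nolc1, a chaperone that carries snoRNPs, had 90.5, 137, 73.0 and 39.0 FPKM, and Shq1, an assembly factor of Dkc1, had 6.67, 6.20, 4.59 and 1.65 FPKM. Nop56 was the fifth gene counted higher with ManGn, with 119, 179, 140 and 58.5 FPKM. Water was the lowest library for these 5. Against the mock extraction 0 of the 19 genes were counted with ManGn, where 3.51% of all genes were higher and 3.47% were lower.

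Of 18 tested genes of the microRNA machinery, 3 were counted higher and 1 lower with ManGn over water (median 0.00), 0 with fOS over mock extraction (median 0.14), and 3 higher and 2 lower with mock extraction over water. With so few genes these counts can be set only loosely beside the 9.44% of all genes higher and 7.37% lower with ManGn. The shares of all genes were 2.67% and 6.41% with fOS over mock extraction, and 9.24% and 6.69% between the controls. Xpo5, the exporter of hairpins, had 23.3 FPKM with ManGn, 30.2 with fOS, 23.3 with mock extraction and 8.14 with water, and Dgcr8, the partner of Drosha, had 10.96, 19.3, 14.6 and 4.01 FPKM. Ddx5 was the third gene counted higher. Prkra, a partner of Dicer1, had 10.9, 10.9, 13.4 and 32.1 FPKM and was the gene counted lower. In these 4 genes the water library stood apart from the other 3, the mock extraction included.

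Of 21 other short RNA genes, outside the rule, 8 reached an FPKM of 1. With ManGn over water 2 were counted higher and 1 lower, and with fOS over mock extraction 4 were higher and 0 lower, where 9.44% and 7.37%, and 2.67% and 6.41%, of all genes were. Between the controls 0 were higher and 3 lower, where 9.24% and 6.69% of all genes were. With fOS over water 2 were higher and 1 lower, where 14.1% and 14.3% of all genes were. Rn7sk (2.48 FPKM with fOS, 0.66 with mock extraction and 2.65 with water) and Rnu5g (1.15 with fOS, 0 with mock extraction and 1.23 with water) were counted higher with fOS where the mock extraction was low. Rnu6, the U6 spliceosomal RNA, had 127 FPKM with ManGn, 104 with fOS, 76.1 with mock extraction and 66.6 with water, with log2 ratios of 0.94 and 0.45, and Rny1 had 1.30 and 1.23 FPKM with ManGn and fOS and was listed at 0 in both controls. Terc, the telomerase RNA, was listed at 0 in all 4 libraries.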

How the data were processed

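The authors deposited 1 table of FPKM values for 4 libraries, made with RSEM according to the submitters' processing notes. Its version, the aligner, build, annotation and RNA selection were not given in the sources used here. The other sheets repeat these values or hold the authors' own ratios and 2-fold lists, and were not used. Members were taken by symbol. The members, gene lists and thresholds were chosen with earlier results of these data known. Log2 ratios of FPKM + 0.1 were taken for genes with an FPKM of at least 1 in 1 of 4 libraries and counted at 2-fold. With 1 library per condition no test was run.

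Reads were estimated from the steps of FPKM with RefSeq gene lengths (GRCm38.p6; GENCODE M21 transcripts for host genes), which can differ from the annotation used for RSEM. A value rests on about 10212900 to 10914400 reads per library. Intervals are exact (Poisson, or conditional binomial for ratios) and cover counting error only. Holding genes and snoRNA sequences came from GENCODE M21. Hairpin sequences of microRNAs came from RefSeq for the 84 of 108 rows it matched and otherwise from GENCODE M21, which gave 105 rows a sequence in all. Genes named are every host gene and scaRNA with an FPKM of at least 1. Of each other class they are the 6 with the most reads, up to 4 highest and 4 lowest ratios among those with at least 10 reads, and up to 3 listed at 0 in the control of a ligand. Up to 4 genes of each protein list and the holding genes were added. Snhg11, Scarna6, Snord47, Snord99, Snora16a, Snora31, Snora34, Snora69, Snora73a, Mir142, Nop56, Rn7sk, Rnu5g, Rnu6, Rny1 and Terc were named outside this rule, after their values were seen. Scripts used Python 3.11.15, numpy 2.4.6, pandas 2.3.3, SciPy 1.17.1 and Matplotlib 3.10.9, and were tested on simulated data.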

Additional observations from a re-analysis of the deposited data

How the results depend on the processing

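No paired analysis was possible because each condition is 1 library. Of 214 alternative values for counts and sums 154 stayed close to the value given, 60 moved and 0 reversed. Of 683 for single genes 645 stayed close, 33 moved and 5 reversed, 22 of these with the other control, and of 42 for list medians 34 stayed close and 8 moved. A single gene could be called reversed only where its ratio had been counted at 2-fold. Among the counts and sums, minimums on FPKM or reads gave most of the moves. At an FPKM of at least 5, snoRNAs and scaRNAs counted higher and lower were 15 and 2 with ManGn over water, 10 and 2 with fOS over mock extraction and 7 and 4 with mock extraction over water, microRNAs were 4 and 4, 5 and 9, and 8 and 3, and host genes with fOS were 0 and 0. The share of all genes at this minimum was not taken. At 10 reads or more, snoRNAs and scaRNAs were 3 and 0, 4 and 0, and 0 and 1, microRNAs 1 and 1, 0 and 0, and 0 and 2, and host genes with fOS 0 and 0. Only 10, 9 and 7 small RNA rows had 10 reads in either library of these pairs. Of all genes with a known length, 737 and 584, 180 and 511, and 747 and 523 were counted higher and lower at 10 reads. Among the snoRNAs counted higher, Snord16a, Snora81 and Snora73b passed this minimum only through a ligand library. Either minimum left 0 other short RNA genes counted with each ligand. With no minimum, 2 host genes were lower with mock extraction than with water, and 7 other short RNA genes were counted with fOS.

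With the other control, 0 host genes were higher and 4 lower with fOS. Of the snoRNP genes 0 were counted with ManGn, and with fOS 8 were higher and 0 lower. Of the microRNA machinery genes 1 was higher and 0 lower with ManGn, and 4 were higher and 3 lower with fOS. Of all genes 3.51% were higher and 3.47% lower with ManGn over mock extraction, and 14.1% and 14.3% with fOS over water. The snoRNP median was then 0.16 with ManGn and 0.95 with fOS. Among ratios that had been counted at 2-fold, the sign changed there for Snora33 (-0.01 with ManGn), Snora44 (-0.08 with fOS), Mir1896 (-1.80 with ManGn and 4.43 with fOS) and Mir719 (-0.51 with ManGn), all from few reads. Signs also changed among ratios below 2-fold. Snora65, the snoRNA with the most reads, went from -0.86 to 1.51 with ManGn and from 0.98 to -1.40 with fOS. Mir703 went from 0.15 to -0.67 with fOS. The cause was not tested. Requiring 3 reads and an FPKM of 1 for detection left 27, 23, 18 and 14 snoRNAs and scaRNAs and 10, 6, 11 and 5 microRNAs with ManGn, fOS, mock extraction and water. Reads taken from the annotated length, which does not give whole reads, summed to 406, 422, 255 and 284 for snoRNAs and scaRNAs and 265, 195, 229 and 258 for microRNAs. Other alternatives were chosen after seeing the data. Without Snora65 the water library had 127 snoRNA and scaRNA reads, and snoRNAs in ribosomal protein genes had 57, 55, 39 and 40 reads. Without the hairpins that lie whole in a spliced transcript of another gene, microRNAs had 107 reads with ManGn, 96 with mock extraction and 117 with water.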
